A study of Mus musculus with 29 samples.

Results

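The regulators of mitochondrial biogenesis and dynamics described here are 10 of the 30025 genes in the table, chosen by name and not by any measured value: Ppargc1a, Ppargc1b, Nrf1, Gabpa, Esrra, Tfam, Polg, Mfn1, Mfn2 and Opa1. Each symbol matched 1 row, and the values of all 29 libraries were used. RNA-seq libraries were made from 3 populations of hematopoietic cells sorted from the bone marrow of 5 WT and 5 5A3+/del mice, the 5A3+/del mice carrying a heterozygous germ line deletion of part of chromosome band 5A3. The WT mice were littermates of the 5A3+/del mice, all C57BL/6J, aged 12.42 to 13.28 weeks (WT) or 12.42 to 13.85 weeks (5A3+/del). The deletion was made with Cre in embryonic stem cells between LoxP sites next to Fbxl13 and Srpk2 and is present in every cell, so that cells outside the marrow carry it as well. The populations were CD150hi HSC, CD150lo HSC and CD150neg MPP (CD150neg HSC in the sample labels), gated as Kit+, lineage-, Sca-1+, CD41- and CD48- cells, with 5 libraries in each group and 4 for 5A3+/del CD150neg MPP.

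PGC-1α and PGC-1β, encoded by Ppargc1a and Ppargc1b, are coactivators that bind no DNA themselves and switch on respiratory genes through transcription factors such as NRF-1 (Nrf1), GABP (also called NRF-2, DNA-binding subunit Gabpa) and ERRα (Esrra). These factors act on nuclear genes for the respiratory chain and on Tfam. The Tfam protein packages mitochondrial DNA and takes part in starting its transcription, while Polg encodes the catalytic subunit of the polymerase that copies this DNA. Mfn1 and Mfn2 join outer membranes of neighbouring mitochondria and Opa1 joins inner membranes and shapes cristae, and hematopoietic stem cells are known for low respiration and for a marked dependence on mitochondrial quality.

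The RefSeq promoter windows (GRCm38.p6, 250 bases before to 50 bases after a transcript start) of 9 of the 10 genes were searched on both strands for a 7-base core of the binding motif of NRF-1 (GCATGCG), GABP (CCGGAAG) and ERR (AAGGTCA), since 3 of the 10 genes encode these factors; Ppargc1b is named only. The GABP letters were found for 4 genes, Gabpa itself among them, and stand in 8.86% of all 32851 windows and for 9.93% of the 27025 genes with windows. The NRF-1 letters were found for 3 genes, beside 3.58% of all windows and 4.01% of all genes. The ERR letters were found for 0 of the 9 genes, beside 4.72% of all windows and 5.38% of all genes. A match of these letters is a description and not a bound site, and no match says only that the letters are not in this window. The stretches of 30 bases that hold the matches are shown as a description, and regulation of a member by another was not tested. They were placed on mm9 by a match of the sequence and are written 5′ to 3′ on the strand of the gene, with the motif on either strand in capitals.
Tfam, GABP letters, chr10:70700822-70700851, minus strand: tcctgccgcggaCCGGAAGtccgggcttcc
Polg, GABP letters, chr7:86611180-86611209, minus strand: ggaggacctcacCCGGAAGtccctctgcac
Mfn1, GABP letters, chr3:32428348-32428377, plus strand: agatccgaagcgCCGGAAGtagccgcccct
Gabpa, GABP letters on the opposite strand, chr16:84835264-84835293, plus strand: ggagggtaagtgCTTCCGGgtccctcagct
Gabpa, NRF-1 letters on both strands, overlapping, chr16:84835339-84835368, plus strand: ctcttggagacactgcactgtaCGCATGCG
Esrra, NRF-1 letters, chr19:6996315-6996344, minus strand: accccctgttttGCATGCGcaggccggccc
Opa1, NRF-1 letters on both strands, overlapping, chr16:29579351-29579380, plus strand: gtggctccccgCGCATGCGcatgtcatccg
In the GENCODE annotation of mm9 the stretches of Tfam and Polg lie in an exon of the gene itself, the first Gabpa stretch lies in exons of both Gabpa and the divergent gene Atp5j, the second Gabpa stretch lies in an exon of Atp5j, and those of Mfn1, Esrra and Opa1 lie in no annotated exon.

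The fragments per library ranged from 21229493 to 38797779 (median 26967169), recovered from the steps of the low FPKM values. The 7 genes of the deleted interval that were taken as a check of the labels summed to 98.7 to 130 FPKM in the WT libraries and 48.7 to 67.6 FPKM in the 5A3+/del libraries, without overlap. Kit and Hlf were present in all 29 libraries. Slamf1, the gene of the sorting marker CD150, was low, at 0.0095 to 22.6 FPKM (median 1.15), and reached 1 FPKM in only 16 of 29. The libraries below 1 FPKM outnumber those of CD150neg MPP, so some CD150hi HSC or CD150lo HSC libraries are among them. The purity of the sorted populations was not tested. Among genes of cells outside the gate, the 8 granulocyte and monocyte markers summed to 220 to 1541 FPKM, highest in CD150lo HSC (1541) and CD150hi HSC (958) of WT replicate 1. Within that list Lyz2 and Prtn3 were present in all 29 libraries and Ctsg was at 0 in 15. S100a8 and S100a9 had the widest ranges, 0 to 737 and 0.31 to 469 FPKM, against 148 to 254 FPKM for Lyz2. The 5 B cell markers summed to 6.20 to 32.2 FPKM (Cd79b present in all 29, Pax5 at 0 in 15), the 4 T cell markers to 0.0741 to 4.28 (Thy1 at 1 FPKM or more in 23, Cd3e at 0 in 19) and the 4 megakaryocyte markers to 13.1 to 43.1 (Pf4 present in all 29, Gp1bb at 0 in 15), and the part of such cells in the results was not tested. In such bulk libraries, fewer cells of a type and less RNA per cell cannot be told apart. None of the 10 genes lies in the deleted interval, although Ppargc1a (chr5:51845488-51958964, mm9) is on the same chromosome.

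All 10 genes were expressed, and their order per length was nearly the same in every group. Over the 29 libraries, Gabpa had the highest level at 19.8 ± 2.90 FPKM (SD, n = 29) and ranked first of the 10 in all 29 libraries, and Opa1 followed at 13.0 ± 2.13 and ranked second in 25. Tfam (8.98 ± 1.61), Mfn2 (8.90 ± 1.93) and Mfn1 (6.39 ± 1.25) came next, so that these 5 genes were the 5 highest in 27 libraries. Nrf1 was at 3.96 ± 0.713 FPKM, below Tfam in every library. The coactivators Ppargc1a (2.26 ± 0.760) and Ppargc1b (2.23 ± 0.809) were nearly equal, with Ppargc1a the higher one in 17 of 29 libraries, and Polg was at 2.14 ± 0.609. Esrra was lowest at 1.62 ± 0.861 FPKM and was last of the 10 in 20 libraries. The FPKM of the mitofusins were ordered as Mfn2 over Mfn1 in 27 of 29 libraries.

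**Figure D1:**
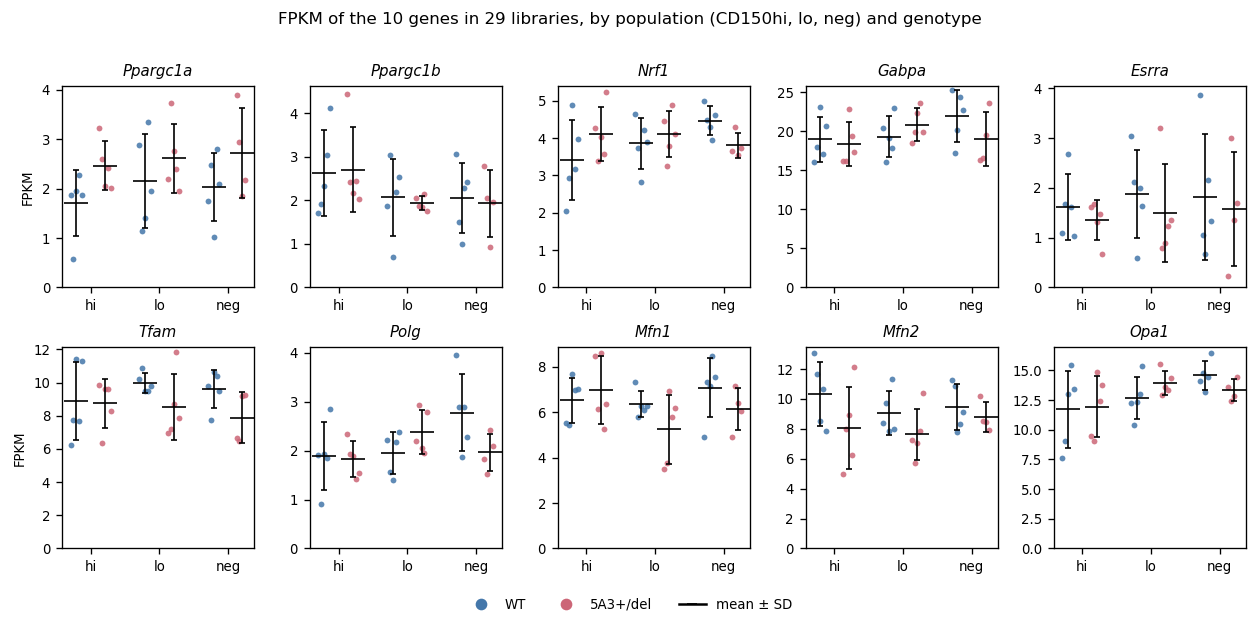
FPKM (y axis, from 0) of each of the 10 genes in every library (points), by population (x axis, CD150hi HSC, CD150lo HSC and CD150neg MPP) and genotype (colour), with the group mean ± SD in black. The points of WT and 5A3+/del overlap for every gene in every population, Gabpa lies between 16.0 and 25.3 FPKM, and Esrra spreads from 0.224 to 3.86 FPKM.

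The spread between libraries was unequal. Gabpa differed 1.58-fold between its lowest and highest library, Tfam 1.89-fold and Opa1 2.17-fold. The same ratio was 6.35 for Ppargc1b, 6.90 for Ppargc1a and 17.2 for Esrra. Esrra rested on 14 to 300 fragments per library and Ppargc1b on 70 to 519, against 2277 to 4516 for Gabpa.

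The first question was whether heterozygous loss of the 5A3 interval changed these regulators. Differences are given as 5A3+/del minus WT on the log2(FPKM + 1) scale after quantile normalization, which understates the change of genes at a few FPKM or less, and a gene was called at an adjusted p under 0.05 in limma with adjustment over all 15409 genes tested. All 10 genes passed the filter on low values. In CD150hi HSC 0 of the 10 were called, against 0.156% of all genes tested (24 genes). Among CD150lo cells 0 were called against 0.0324%, and in CD150neg MPP 0 against 0.0454%. At an unadjusted p under 0.05 there were also 0 of 10 in each population, where 13.1%, 6.87% and 4.27% of all genes fell below that value. In no population were the WT and 5A3+/del libraries of a member free of overlap, which was so for 2.58%, 1.63% and 1.51% of all genes. The median difference of the 10 genes was 0.011, 0.024 and -0.14 in the 3 populations, beside 0.0044, 0.011 and -0.0013 over all genes. Their median absolute difference was 0.065, 0.21 and 0.17 in the same order, beside 0.19, 0.15 and 0.14 over all genes. In CD150neg MPP 9 of the 10 estimates were below 0, the exception being Ppargc1a, and in CD150hi HSC and CD150lo HSC 4 and 5 were.

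These tests bound the change rather than show that there was none. The 95% intervals of 7, 7 and 6 genes lay within a difference of 0.58 in either direction on the log2(FPKM + 1) scale in CD150hi HSC, CD150lo HSC and CD150neg MPP, and those of all 10 genes lay within a difference of 1. On this scale the bound is not a fold change of FPKM, which can be larger for genes as low as Esrra, Polg and the coactivators. The widest reach was that of Esrra, to -0.84 in CD150lo HSC, and of Ppargc1a, to 0.75 in CD150hi HSC.

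**Figure D2:**
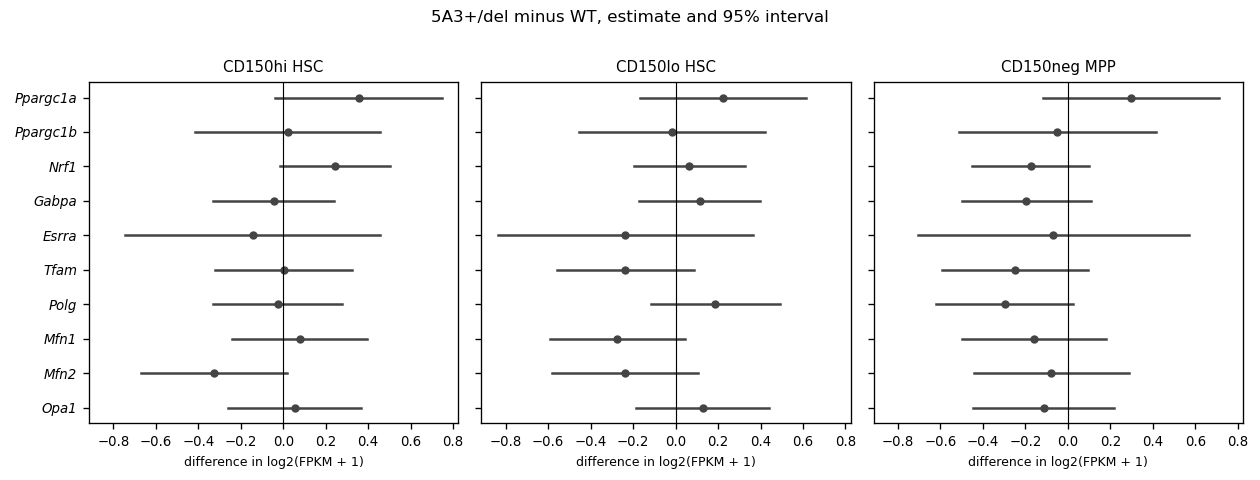
Estimated difference between 5A3+/del and WT (points, log2(FPKM + 1) scale, x axis) with its 95% interval (lines) for the 10 genes, in 1 panel per population. Every interval crosses 0, Ppargc1a lies to the right of 0 and Mfn2 and Esrra to the left in all 3 panels, and the estimates run from -0.33 to 0.35.

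The second question was whether the regulators differ between the populations, from CD150hi HSC to CD150lo HSC and on to CD150neg MPP. These comparisons share groups, the CD150hi HSC entering 2 of the 3 in each genotype, and are not independent of each other. In WT mice 0 of the 10 genes were called between CD150lo HSC and CD150hi HSC (3.53% of all genes), 0 between CD150neg MPP and CD150lo HSC (0.188%) and 0 between CD150neg MPP and CD150hi HSC (10.0%). In 5A3+/del mice the counts were 0 (3.18%), 0 (0.0389%) and 0 (6.16%) in the same order. At an unadjusted p under 0.05, limma gave 2 genes between CD150neg MPP and CD150hi HSC of WT mice (21.8% of all genes), namely Nrf1 and Polg, and 1 gene between CD150lo HSC and CD150hi HSC of 5A3+/del mice (13.3%), namely Mfn1. The other 4 comparisons gave 0, with 14.1% and 8.75% of all genes in WT and 4.95% and 16.9% in 5A3+/del mice. The libraries of the populations overlapped for every member in all 6 comparisons, whereas 4.04%, 2.26% and 8.63% of all genes were free of overlap in WT and 4.33%, 1.95% and 7.61% in 5A3+/del mice, in the order given above. The median absolute difference of the members was 0.15 between CD150neg MPP and CD150hi HSC of WT mice and 0.11 in 5A3+/del mice, beside 0.23 and 0.21 over all genes.

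**Figure D3:**
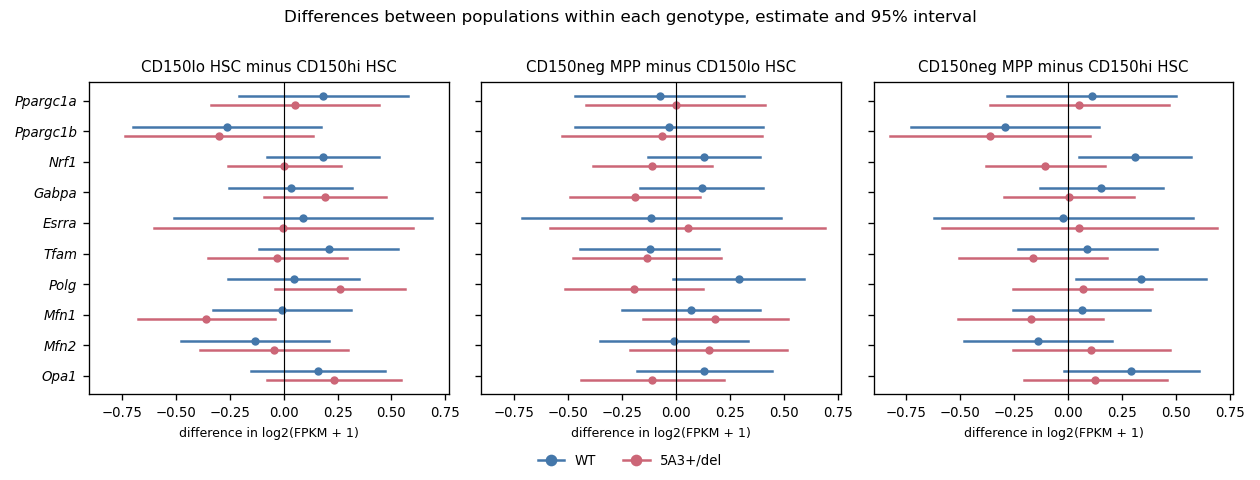
Estimated differences between populations (points, log2(FPKM + 1) scale, x axis) with 95% intervals (lines) for the 10 genes in WT (blue) and 5A3+/del (red) mice, in 1 panel per pair of populations. The intervals of Nrf1 and Polg in WT mice in the right panel and of Mfn1 in 5A3+/del mice in the left panel leave out 0 before adjustment, and Ppargc1b lies to the left of 0 in all 3 panels.

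The coactivator Ppargc1a had the largest estimate between the genotypes. In CD150hi HSC, its FPKM was 1.87, 0.566, 1.96, 2.28 and 1.88 in WT replicates 1 to 5 and 3.24, 2.60, 2.06, 2.42 and 2.01 in 5A3+/del replicates 1 to 5. The 5A3+/del libraries lay higher and the ranges met between 2.01 and 2.28. The difference was 0.35 (SE 0.19, 95% interval -0.04 to 0.75, adjusted p = 0.434 in limma). In CD150lo HSC, the values were 2.89, 1.15, 1.40, 3.35 and 1.94 in WT and 2.20, 3.73, 2.77, 2.39 and 1.96 in 5A3+/del mice, and the difference was 0.22 (SE 0.19). In CD150neg MPP, they were 1.76, 2.47, 1.02, 2.81 and 2.09 in WT and 3.91, 2.95, 1.85 and 2.17 in 5A3+/del mice, with a difference of 0.30 (SE 0.20). The estimates of the 3 populations, which come from the same mice, were all positive, and in each population the libraries of the genotypes were intermixed. The WT CD150hi HSC library of replicate 2 stood apart from the other 4 WT libraries, and without that mouse the difference in CD150hi HSC was 0.25 (SE 0.18).

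Ppargc1b showed no such direction. Its level in CD150hi HSC was 2.62 ± 0.983 FPKM in WT (SD, n = 5) and 2.71 ± 0.982 in 5A3+/del mice, and the differences between the genotypes were 0.02, -0.02 and -0.05 in the 3 populations (SE 0.21, 0.21 and 0.23). Its estimates between populations were the lowest of the 10 genes in all 4 comparisons with CD150hi HSC except CD150lo HSC of 5A3+/del mice, where Mfn1 was lower. CD150lo HSC and CD150neg MPP were below CD150hi HSC by 0.26 and 0.29 in WT and by 0.30 and 0.36 in 5A3+/del mice, and the adjusted p ranged from 0.455 to 0.647 in limma. In 5A3+/del mice, CD150hi HSC had 4.44, 2.43, 2.18, 2.46 and 2.04 FPKM and CD150lo HSC had 2.05, 1.87, 1.85, 2.15 and 1.74. The CD150lo value was the lower one in 5 of 5 5A3+/del mice and in 3 of 5 WT mice.

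Of the transcription factors, Nrf1 had its lowest group mean in WT CD150hi HSC and its highest in WT CD150neg MPP. WT CD150hi HSC had 2.06, 2.94, 4.88, 3.17 and 3.97 FPKM in replicates 1 to 5, and WT CD150neg MPP of the same mice had 4.98, 4.48, 4.31, 3.96 and 4.62. The MPP value was the higher one in 4 of 5 mice, replicate 3 being the exception. The difference was 0.31 (SE 0.13, 95% interval 0.05 to 0.57, adjusted p = 0.133 in limma). Without WT replicate 1 it was 0.19 (SE 0.13, adjusted p = 0.459), and over all alternatives run the adjusted p ranged from 0.0813 to 0.459. The CD150hi HSC library of that mouse had the lowest value of its group for 5 members (Ppargc1b, Nrf1, Tfam, Gabpa and Opa1) and also the highest sum of granulocyte and monocyte markers of the 5, and the part of those cells was not tested. The CD150lo HSC library of the same mouse, with a still higher sum, was the lowest of its group for 0 members.

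In 5A3+/del mice Nrf1 did not follow this order. CD150hi HSC had 4.28, 3.39, 4.04, 3.57 and 5.23 FPKM and CD150neg MPP had 3.65, 4.31, 3.56 and 3.73, a difference of -0.11 (SE 0.13). The genotype effect in CD150neg MPP minus that in CD150hi HSC was -0.42 (SE 0.18), with an adjusted p of 0.581 in limma. Within CD150hi HSC, the 5A3+/del libraries exceeded the WT ones by 0.24 (SE 0.13, 95% interval -0.02 to 0.50, adjusted p = 0.420), and by 0.14 (SE 0.12) without WT replicate 1.

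Gabpa, the most abundant of the 10, varied least. Its lowest group mean was 18.4 ± 2.84 FPKM (SD, n = 5) in 5A3+/del CD150hi HSC, and its highest was that of WT CD150neg MPP, with libraries from 17.2 to 25.3 FPKM. The differences between the genotypes were -0.04, 0.11 and -0.19 in CD150hi HSC, CD150lo HSC and CD150neg MPP (SE 0.14, 0.14 and 0.15). Of its exons, 6.98% of the bases also lie in exons of Atp5j on the other strand (median 32.4 FPKM), and the library kit does not mark strand, so that reads from that stretch cannot be assigned to 1 of the genes.

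Esrra, the nuclear receptor, was too low and too variable for a narrow bound. Its group means lay between 1.35 ± 0.402 FPKM (SD, n = 5, 5A3+/del CD150hi HSC) and 1.87 ± 0.891 (n = 5, WT CD150lo HSC). The 4 values of 5A3+/del CD150neg MPP were 0.224, 3.00, 1.35 and 1.69. The differences between the genotypes were -0.14, -0.24 and -0.07 with SE of 0.29 to 0.31. Of the bases in Esrra exons, 2.9% also lie in exons of Trmt112 on the other strand. Trmt112 was far higher, at 44.6 to 79.0 FPKM (median 54.7). Reads from that stretch cannot be assigned to 1 of the genes, and their part in the Esrra level was not tested.

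Tfam and Polg act on mitochondrial DNA itself. Tfam had 6.26, 7.75, 11.5, 7.70 and 11.3 FPKM in WT CD150hi HSC, a wider spread than the 9.47 to 10.9 of WT CD150lo HSC. In 5A3+/del mice its group means were 8.75 ± 1.47 FPKM (SD, n = 5) in CD150hi HSC, 8.53 ± 1.97 (n = 5) in CD150lo HSC and 7.89 ± 1.53 (n = 4) in CD150neg MPP, and the steps between them were smaller than the spread within each group. The difference between the genotypes was 0.0025 in the CD150hi population, -0.24 in the CD150lo and -0.25 in the CD150neg population (SE 0.16, 0.16 and 0.17).

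Polg was highest in WT CD150neg MPP. These libraries had 3.96, 2.90, 1.88, 2.88 and 2.27 FPKM, and WT CD150hi HSC of the same mice had 1.90, 0.899, 1.93, 1.84 and 2.86. The MPP value was the higher one in 3 of 5 mice, and the groups overlapped widely. The difference was 0.34 (SE 0.15, 95% interval 0.04 to 0.64, adjusted p = 0.168 in limma).

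The order of Polg differed in 5A3+/del mice, where CD150lo HSC was highest (2.21, 2.94, 2.04, 1.94 and 2.79 FPKM) and CD150neg MPP had 1.84, 1.53, 2.42 and 2.10. The genotype effect in CD150neg MPP (-0.30, SE 0.16) minus that in CD150lo HSC (0.19, SE 0.15) was -0.49 (SE 0.21, adjusted p = 0.948 in limma). Of the bases in Polg exons, 12.5% are shared with Fanci on the other strand, a repair gene with a median of 1.87 FPKM. The 13 mRNAs encoded by mitochondrial DNA, the product of these steps, summed to 7953 to 10509 FPKM in WT and 9244 to 14274 in 5A3+/del CD150hi HSC, 8838 to 13641 and 9896 to 12562 in CD150lo HSC, and 8889 to 12071 and 10360 to 11947 in CD150neg MPP, with overlap in each population.

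Among the fusion genes, Mfn2 had the most negative estimate between the genotypes. In CD150hi HSC its FPKM was 13.0, 11.6, 8.56, 10.6 and 7.89 in WT and 4.99, 7.97, 8.91, 6.25 and 12.1 in 5A3+/del mice. In 4 of the 5 5A3+/del libraries Mfn2 was below the WT median of 10.6 FPKM, and replicate 5 was above it. The difference was -0.33 (SE 0.17, 95% interval -0.67 to 0.02, adjusted p = 0.411 in limma), and -0.23 (SE 0.17) without WT replicate 1, whose CD150hi HSC library had the highest Mfn2 value. In CD150lo HSC the values were 8.37, 9.75, 7.85, 11.3 and 7.99 in WT and 7.24, 5.71, 7.08, 7.86 and 10.4 in 5A3+/del mice, a difference of -0.24 (SE 0.17). In CD150neg MPP the difference was -0.08 (SE 0.18).

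Mfn1 had its lowest group mean in 5A3+/del CD150lo HSC. They had 3.52, 3.77, 6.93, 5.80 and 6.20 FPKM, and CD150hi HSC of the same mice had 8.47, 6.15, 8.60, 5.26 and 6.35. The CD150lo value was the lower one in 4 of 5 mice, with a difference of -0.36 (SE 0.16, 95% interval -0.68 to -0.04, adjusted p = 0.293 in limma). The same difference was -0.01 (SE 0.16) in WT mice, and the difference between these differences was -0.35 (SE 0.22, adjusted p = 0.999).

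Opa1 was lowest in CD150hi HSC of both genotypes. WT CD150hi HSC had 7.62, 9.04, 13.1, 15.4 and 13.4 FPKM, WT CD150neg MPP of the same mice had 14.1, 14.8, 13.2, 14.5 and 16.5, and the MPP value was the higher one in 4 of 5 mice. The difference was 0.29 (SE 0.15, adjusted p = 0.264 in limma) in WT and 0.13 (SE 0.16) in 5A3+/del mice. Between the genotypes it differed by 0.05, 0.13 and -0.11 (SE 0.15, 0.15 and 0.16).

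Whether the genotype effect itself differed between populations was tested for each gene and each pair of populations. Of the 10 genes 0 were called in any of the 3 tests, and of all genes 0% as well. At an unadjusted p under 0.05, limma gave 0 genes between CD150lo HSC and CD150hi HSC (3.98% of all genes), Polg between CD150neg MPP and CD150lo HSC (5.00%) and Nrf1 between CD150neg MPP and CD150hi HSC (7.96%), with the values given above.

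The wider pathway was followed in 149 further genes of 6 lists, of which 139 were tested: coregulators and transcription factors of biogenesis, mitochondrial DNA maintenance, fusion and OPA1 processing, fission, transport and mitophagy. Between the genotypes limma called 0 of the 139 in each population, and 18, 4 and 3 of them had an unadjusted p under 0.05 in CD150hi HSC, CD150lo HSC and CD150neg MPP in turn, with the shares of all genes given above. The smallest adjusted p was that of Armc10, an outer membrane protein whose gene lies inside the deleted interval and which was named after its values were seen (difference -0.77, -0.88 and -1.04, adjusted p = 0.0988, 0.116 and 0.108 in limma). Its CD150hi HSC library of 5A3+/del replicate 1 had 27.9 FPKM, within the WT range of 16.6 to 28.7, and without that mouse it was called in CD150hi HSC and CD150neg MPP.

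Between CD150neg MPP and CD150hi HSC, 6 of the 139 genes were called in WT (4 higher, 2 lower) and 5 in 5A3+/del mice (2 higher, 3 lower), beside 10.0% and 6.16% of all genes. Of the 34 tested coregulators and transcription factors, 4 were called in WT mice, all higher in CD150neg MPP, and 2 in 5A3+/del mice, 1 higher and 1 lower. In WT mice Creb1, which activates Ppargc1a transcription in other tissues, rose from 13.7 ± 2.10 to 22.1 ± 3.95 FPKM (SD, n = 5; difference 0.61, adjusted p = 0.00269 in limma). Its means in 5A3+/del mice were 17.3 ± 1.86 FPKM in CD150hi HSC and 20.4 ± 1.68 in CD150neg MPP (SD, n = 5 and 4). Also in WT mice, Ncoa3, a nuclear receptor coactivator, rose by 0.49 (adjusted p = 0.0180 in limma). Prkab1, a regulatory subunit of the energy sensor AMPK, rose by 0.63 in WT mice (adjusted p = 0.0184 in limma). Creb1, Ncoa3 and Prkab1 were not called in 5A3+/del mice. Means there also rose from CD150hi HSC to CD150neg MPP, from 10.3 to 12.6 FPKM for Ncoa3 and from 10.9 to 15.2 FPKM for Prkab1. For Prkab1 the call was lost without the 2 libraries highest in granulocyte and monocyte markers (0.50, adjusted p = 0.0663 in limma), with only the groups compared (adjusted p = 0.102) and without WT replicate 1 (0.41, adjusted p = 0.166), 2 or 4. Gabpb1, the partner subunit of Gabpa, rose from 9.14 ± 1.41 to 13.4 ± 1.72 FPKM (0.48, adjusted p = 0.0245) in WT and from 10.3 ± 0.870 to 15.8 ± 2.96 FPKM (n = 4 for CD150neg MPP; 0.51, adjusted p = 0.0308) in 5A3+/del mice. For Gabpb1 the calls were lost with only the groups compared (adjusted p = 0.0877 in WT and 0.153 in 5A3+/del mice in limma), without WT replicate 2, 3, 4 or 5 (up to 0.140) and without 5A3+/del replicate 1, 2 or 3 (up to 0.205).

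On the fission list, 2 of 17 tested genes were called in WT and 1 in 5A3+/del mice, each lower in CD150neg MPP. The shares of all genes called were 10.0% and 6.16%. Spire1, an actin nucleator with an isoform on mitochondria, was lower in WT (from 7.52 ± 1.05 to 3.84 ± 1.56 FPKM; -0.90, adjusted p = 0.00672) and in 5A3+/del mice (from 6.67 ± 1.63 to 2.59 ± 0.966 FPKM; -1.15, adjusted p = 0.00166). It was also the 1 list gene called between CD150lo HSC and CD150hi HSC of 5A3+/del mice (-0.80, adjusted p = 0.0398 in limma), beside 3.18% of all genes. In WT mice Spire1 was lower in CD150lo HSC as well, without a call (from 7.52 to 4.59 FPKM, -0.61, adjusted p = 0.157 in limma). Fam54b, also named Mtfr1l, was called lower in WT (-0.86, adjusted p = 0.00593 in limma). Its means in 5A3+/del mice, without a call, were 14.2 FPKM in CD150hi HSC and 8.73 FPKM in CD150neg MPP. In 5A3+/del mice, Afg3l2, a subunit of a protease of the inner membrane, was lower (-0.65, adjusted p = 0.0144), as was the corepressor Nrip1 (-0.40, adjusted p = 0.0344), and Top3a, a topoisomerase of mitochondrial and nuclear DNA, was higher (0.79, adjusted p = 0.0339). The WT means, without a call, went from 18.5 to 15.7 FPKM for Afg3l2, from 24.7 to 21.9 for Nrip1 and from 3.69 to 3.97 for Top3a. Of the 139 list genes, 0 were called in the tests of whether the genotype effect differed between populations. Calls in 1 genotype alone therefore do not show a difference between the genotypes. The lists of transport and mitophagy genes had 0 called in all comparisons. WT CD150lo HSC against CD150hi HSC and both comparisons of CD150neg MPP with CD150lo HSC had 0 called in every list. They had 16, 8 (WT) and 2 (5A3+/del) of the 139 genes at an unadjusted p under 0.05, beside 14.1%, 8.75% and 4.95% of all genes.

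These counts depended on single mice and settings. Over all alternatives run, Creb1 in WT mice and Spire1 in 5A3+/del mice were called throughout between CD150neg MPP and CD150hi HSC. The largest adjusted p in limma was 0.0346 for Creb1 in WT mice and 0.0301 for Spire1 in 5A3+/del mice. It was 0.0949 for Ncoa3, 0.0552 for Fam54b and 0.0637 for Spire1 in WT mice, and 0.231 for Afg3l2, 0.249 for Nrip1 and 0.245 for Top3a in 5A3+/del mice, and it was 0.216 for Spire1 between CD150lo HSC and CD150hi HSC of 5A3+/del mice. Without WT replicate 1 or 2 the WT count of 6 between CD150neg MPP and CD150hi HSC was 2 and 3, and without 5A3+/del replicate 1, 2 or 3 the 5A3+/del count of 5 was 2, 1 and 2. With mouse as a random or fixed block, 3 and 2 list genes, not 1, were called between CD150lo HSC and CD150hi HSC of 5A3+/del mice, and 1 (Ssbp1) instead of 0 between the same populations of WT mice.

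**Figure D4:**
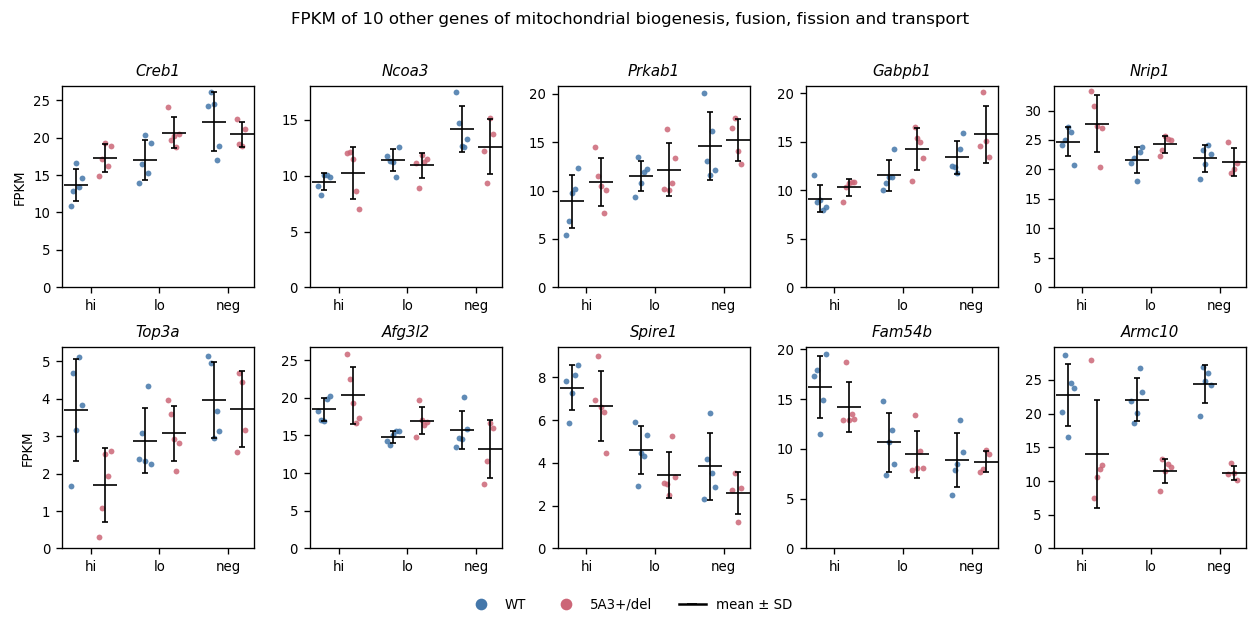
FPKM (y axis, from 0) of the 9 pathway genes called between populations and of Armc10 in every library (points), by population (x axis) and genotype (colour), with the group mean ± SD in black. Spire1 is highest in CD150hi HSC of both genotypes, with means of 7.52 and 6.67 FPKM, Gabpb1 is highest in CD150neg MPP, and Armc10 of 5A3+/del mice lies below the WT range except in 1 CD150hi HSC library at 27.9 FPKM.

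Correlations between the members were mostly weak. Over the 45 pairs of members, the median Pearson r of normalized log2 values across the 29 libraries, which share mice and depth, was -0.0018, and 22 pairs were above 0. The highest pair was Tfam and Gabpa (r = 0.61, Spearman's rho = 0.55, r = 0.50 without the 2 libraries farthest from the median of Tfam), followed by Gabpa and Opa1 (r = 0.58, rho = 0.52), and the lowest was Ppargc1a and Mfn2 (r = -0.44, rho = -0.37). After subtraction of the group means the first pair had r = 0.68.

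The genes most like each member over the same 29 libraries were named as the highest 2 by Pearson r among all genes tested. Picking the highest of 15409 values gives a high r by selection alone, and the values are a description without a test. They were Phka1 (0.73) and Clybl (0.72) for Ppargc1a, Dennd2d (0.72) and Phlpp2 (0.72) for Ppargc1b, and Psmd13 (0.68) and Cenpa (0.64) for Nrf1. For Gabpa they were 2810417H13Rik (0.79) and Snord110 (0.77), for Esrra Leap2 (0.65) and Peg12 (0.64), for Tfam Rfwd2 (0.69) and Gm13461 (0.68), and for Polg Renbp (0.72) and Slc45a4 (0.70). Mfn1 was most like Rpl15-ps2 (0.70) and Smu1 (0.69), Mfn2 like C8g (0.70) and Eef1d (0.69), and Opa1 like Rbbp7 (0.81) and Rnmtl1 (0.80). None of the 20 genes was another member.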

How the data were processed

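The authors amplified RNA of the sorted populations, sequenced it with paired ends and mapped the reads to mm9, with Bowtie 0.12.2 and HTSeq named in the submitters' processing notes. The authors deposited FPKM values (fragments scaled by transcript length and library depth) for 30025 genes in 29 libraries, with no further normalization stated and with the annotation not given in the sources used here. The exon measure and filter of the study's own limma analysis are other quantities and were not used here.

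The following was computed from the FPKM. Gene identifiers were matched to GENCODE of mm9 (29279 of 30025, 97.52%), and FPKM times exon length gave whole fragments for 98.2% to 98.7% of the low values per library (within 0.02 fragments, values up to 20 fragments). This gives the depth and covers counting error only, since amplified fragments carry no molecular identifiers. The 15409 genes that reached 1 FPKM in 4 or more libraries were kept, their log2 values (pseudocount 1) were quantile normalized over all libraries, and limma 3.58.1 in R 4.3.3 was fitted with 6 group means and 12 two-sided contrasts, with Benjamini-Hochberg adjustment and a threshold of 0.05. The fit was tested on simulated data. Groups were taken from the genotype and cell type in the labels. A code in the labels gives the mouse, so that replicate numbers pair populations within a genotype (same-mouse residuals had r from -0.042 to 0.235, median 0.0786, and others a median of -0.0250); genotypes with the same number are different mice. The code does not state how mice were handled in batches, and no batch was analysed here. Of 10 mice, 1 (WT) had Xist above 10 FPKM in its libraries and was covered by leaving out each mouse.

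The members and the gene lists were chosen with earlier results of these data known. Named genes were the members, up to 3 genes per list and comparison with the smallest adjusted p under 0.05, and the 2 genes most correlated with each member. Of the 149 list genes, Marchf5 was not matched. Motif letters were searched in RefSeq windows of GRCm38.p6. Protein sequences were not used here. Alternatives were another pseudocount (0.1), no filter, other scalings, a trend in the variance prior, mouse as a block, age as a covariate, only the groups compared, and leaving out each of 10 mice; leaving out the 2 libraries highest in granulocyte markers, and the same settings for the lists, were added after seeing the data.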

Additional observations from a re-analysis of the deposited data

Results flagged for a closer look

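The 60 sets of FPKM values of 1 gene in 1 group were searched for a library far from the others, for which chance alone gives about 1 in 20, or 3 of 60, and 3 were found. Ppargc1a in WT CD150hi HSC replicate 2 was at 0.566 FPKM, below the 1.87 to 2.28 of the other 4 libraries. Ppargc1b in 5A3+/del CD150hi HSC replicate 1 was at 4.44 FPKM, above the 2.04 to 2.46 of the others. Esrra in 5A3+/del CD150lo HSC replicate 1 was at 3.21 FPKM, above the 0.792 to 1.36 of the others. No gene differed between populations in its genotype effect after adjustment (30 tests, smallest adjusted p = 0.581 in limma).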

How the results depend on the processing

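The count of members called was 0 in all 12 comparisons under every alternative run, mouse as a random block and, between populations, as a fixed block included. The replicate block changed no member's call and moved list counts as given below. The 2 member estimates that moved by more than 1 SD were those of Esrra without 5A3+/del replicate 1: CD150neg MPP minus CD150lo HSC in 5A3+/del mice was 0.55 and the matching difference of genotype effects 0.66. With each mouse left out in turn, the counts of list genes called were 0 to 1 between the genotypes in CD150hi HSC and in CD150neg MPP, 0 to 1 (WT) and 0 to 2 (5A3+/del) between CD150lo HSC and CD150hi HSC, and 2 to 7 (WT) and 1 to 6 (5A3+/del) between CD150neg MPP and CD150hi HSC. Between CD150lo HSC and CD150hi HSC of WT mice, 1 list gene was called, not 0, with median scaling, no further normalization, a trend in the variance prior and the replicate block of either kind. In 5A3+/del mice the count of 1 was 0 with a pseudocount of 0.1 and with only the groups compared, 2 with median scaling and with mouse as a fixed block, and 3 with mouse as a random block. The count of 5 between CD150neg MPP and CD150hi HSC of 5A3+/del mice was 1 with only the groups compared. The cause was not tested. Over all genes, the 24 genotype calls in CD150hi HSC ranged from 0 with only the groups compared to 100 with a trend in the variance prior, so the background shares in the text hold for the settings given. With 4 or 5 mice per group and amplified RNA, Esrra and the coactivators had the widest intervals.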
